A study of Mus musculus with 10 samples.

Results

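Nerve terminals and dendrites are held together at the synapse by paired adhesion proteins and by the scaffolds that anchor them. The 9 genes described here encode such proteins: the neurexins Nrxn2 and Nrxn3, the neuroligins Nlgn1 and Nlgn2, and the postsynaptic scaffolds Dlg4, Shank1, Shank2, Shank3 and Homer1. They were chosen by name, with earlier results of these data known, and are 9 of the 53379 genes counted in each library. Neurexins sit in the presynaptic membrane and bind neuroligins across the cleft. Neuroligins bind scaffolds of the Dlg family on the postsynaptic side, and Dlg proteins connect, through linker proteins, to Shank and Homer proteins, which reach glutamate receptors and the actin cytoskeleton. In the hippocampus these proteins are best known from synapses of pyramidal neurons and interneurons, and several of the genes are disrupted in autism and intellectual disability.

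RNA-seq libraries were made from the hippocampus of male mice aged 5 weeks. In the conditioned groups, cells labelled with a ChR2-EYFP transgene were sorted for EYFP, and the study names the sorted material as cells in its methods and as nuclei in its results. The tag was delivered by AAV9-c-Fos-tTA with AAV9-TRE-ChR2-EYFP, so that the c-Fos promoter drives tTA, tTA drives ChR2-EYFP, and doxycycline in the diet blocks the step between them. Off doxycycline, the aversive group (neg, 2 libraries, replicates 1 and 3) received 4 foot shocks of 2 s at 1.5 mA. The appetitive group (pos, 2 libraries, replicates 1 and 2) was exposed to a female in a clean home cage, for 1 h by the labels and for longer by the study's methods, and the neutral group (neu, 3 libraries) was placed in the same conditioning cage without either stimulus. The home-cage group (mock, 3 libraries) stayed in the home cage by its labels, while the study's methods call it an untagged control, and which cells were sorted there is not clear. Tissue was pooled over mice for each condition, and the untagged control is listed with fewer mice than it has libraries. Whether each library of the other groups was a pool of its own is not stated, so p-values measure the spread between libraries, which may be technical. The tag marks any cell in which the c-Fos promoter and the virus were active and is not restricted to neurons.

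The libraries held between 16968588 counts (appetitive replicate 2) and 67650693 counts (neutral replicate 2). All 3 neutral libraries were made with a different kit workflow and sequenced at 100 bp, against 40 bp for the other 7, so neutral experience and library preparation cannot be told apart. None of the neutral group's 3 comparisons has a value within one preparation. The appetitive, aversive and home-cage libraries share a described workflow and read length, and whether they were prepared in 1 batch is not known here. The 9 genes together gave from 610 counts (home-cage replicate 2) to 11822 counts (aversive replicate 3). A count of 3, taken as the floor of detection, equalled from 0.0347 CPM in neutral replicate 2 to 0.235 CPM in appetitive replicate 1, where CPM is the read count normalized by library size and edgeR's trimmed mean of M values. Floors and intervals cover counting error only. The trimmed-mean factor ran from 0.480 in appetitive replicate 1 to 1.45 in home-cage replicate 3, and a low factor raises a library's CPM. Orders of libraries are given at this scaling and can change with library size alone. All 9 genes exceeded 3 counts in every home-cage library, 8 did so in aversive replicate 1, 7 in appetitive replicate 1, 6 in appetitive replicate 2 and 7 in neutral replicate 1. Genes with at least 1 count numbered 14144 and 14658 in the appetitive libraries and from 16849 to 30899 in the others. Appetitive replicate 1 held 26647573 counts, and home-cage replicate 2 had 20596 such genes from 20505550 counts. The part of this in the low counts of single genes was not tested.

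Markers of cell types other than neurons were abundant. In appetitive replicate 1 the myelin gene Mbp alone took 30.8% of all counts (95% Wilson interval 30.8 to 30.9), and in neutral replicate 1 the choroid plexus gene Ttr took 13.6% (13.6 to 13.6). The summed level of the 11 neuron markers was 360, 231 and 240 CPM in the home-cage libraries, 700 and 446 in the aversive, 671 and 174 in the appetitive and 71.5, 108 and 74.7 in the neutral libraries. Snap25, a vesicle fusion protein, was the most abundant of them in 7 of 10 libraries. It made up 577 CPM of the sum in appetitive replicate 1 and 154 CPM in appetitive replicate 2, against 422 and 123 CPM in the aversive libraries. With library size alone Snap25 in appetitive replicate 1 (7381 of 26647573 counts) was below aversive replicate 1 (8433 of 27159427). Gad1, Gad2 and Neurod6 were at 0 in both appetitive libraries, Syt1 was at 0 in appetitive replicate 2, Gad1, Gad2 and Stmn2 were at 0 in neutral replicate 1, Gad2 was at 0 in aversive replicate 1 and neutral replicate 2, and Gad1 was at 0 in neutral replicate 3. Nefl read 0.0782 and 0.524 CPM in the appetitive libraries, in which Nrxn3 and Shank3 were also low. Of the 11 markers, 10 had a lower fitted level in the appetitive than in the aversive group and 9 a lower one than in the home-cage group, with Tubb3 at 28.6 CPM in appetitive replicate 1 the second highest of its 10 values. Against the neutral group 7 were lower and 4 higher. At an adjusted p under 0.05 edgeR called Snap25 higher against neutral and Nefl lower against aversive. The part of neuron content in the members' levels was not tested. Fewer neurons and less RNA per neuron cannot be told apart in bulk libraries, and this holds for each level below.

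The 6 oligodendrocyte markers summed to 363317, 292128 and 47425 CPM in the home-cage libraries, 406995 and 22997 in the aversive, 798768 and 75351 in the appetitive and 23541, 32273 and 7195 in the neutral libraries, with all 6 detected throughout and Mbp the most abundant in 7 of 10 libraries. Without scaling they made up 38.3% of all counts in appetitive replicate 1, where the low factor raises the CPM. The choroid plexus list of 4 genes, led by Ttr everywhere, read 130409, 21097 and 95018 CPM in the neutral libraries and between 849 and 13699 CPM in the others, with Clic6 at 0 in appetitive replicate 2. The 6 microglia markers read 35.7, 253 and 205 CPM in the neutral libraries, where Cx3cr1 was at 0 in replicate 1, and between 707 and 8367 CPM elsewhere. Precursor (4 genes, led by Olig1 in 9 of 10 libraries) and endothelial (5 genes) sums ran from 64.4 to 826 CPM and from 42.6 to 2371 CPM, with Olig2 at 0 in appetitive replicate 1, Pdgfra at 0 in appetitive replicate 2 and Pecam1 at 0 in neutral replicate 1. Ependymal (4 genes) and meningeal (4 genes) sums ran from 0.0782 to 293 CPM and from 2.97 to 119 CPM, both lowest in appetitive replicate 1, where 3 of the 4 ependymal markers were at 0, while Col1a1, Dcn and Lum were at 0 in neutral replicates 1 and 3, and Dcn and Lum in appetitive replicate 2. Libraries of one group thus differed widely in their marker sums. Cell make-up and RNA per cell cannot be told apart in these sums, and their part in the gene levels below was not tested.

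**Figure D1:**
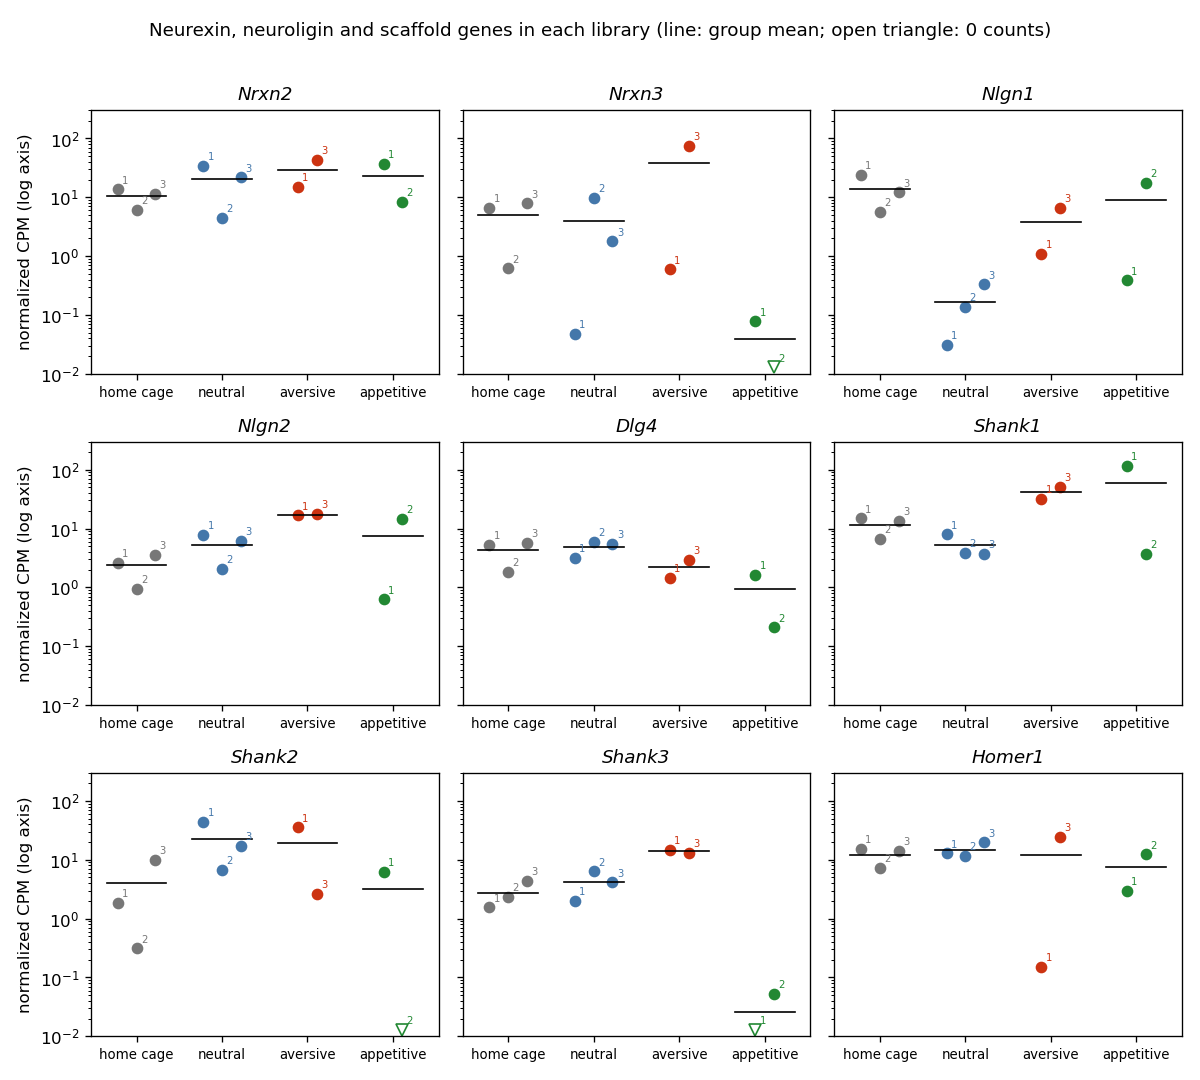
Normalized CPM on a log axis for each of the 9 genes, with 1 point per library (numbered by replicate), a line at each group's mean and an open triangle for a library with 0 counts. Nrxn3 and Shank3 sit at or near 0 in both appetitive libraries, and Nlgn1 lies under 1 CPM in all 3 neutral libraries.

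None of the 9 genes passed an adjusted p under 0.05 by edgeR's quasi-likelihood test, with Benjamini-Hochberg adjustment over the 19754 genes tested, in any of the 6 comparisons. All 9 passed the filter on low counts. The share of all genes whose libraries separate between groups is not given here, so nothing particular to a gene is read from the orders of libraries below. The spread between libraries of a group was large (common dispersion 1.49, a coefficient of variation of 122%), which sets how large a difference had to be to pass. Comparisons that share a group share its libraries, so their values are given side by side and not as separate evidence. The median log2 fold change over all tested genes depended on the scaling. Appetitive against home cage, for example, it was -1.45 with trimmed-mean scaling, -1.17 with DESeq2 size factors and -1.93 with library size alone, so the members' values are read against those of all genes. Medians are also given with each gene that had 3 or fewer counts over a group set to the bound its counts allow, and genes that low in both groups left out.

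Aversive against neutral asks what foot shock adds to exposure to the same cage. None of the 9 genes passed edgeR's adjusted threshold, where 0.0405% of all genes did. At an unadjusted p under 0.05 there were 2 members (Nlgn1 and Shank1, both with the higher mean in the aversive group) against 19.1% of all genes, and DESeq2 called 1 (Nlgn1) against 16.5%. The members' median log2 fold change was 1.68, and that of all genes was -0.15 (-0.19 with low genes at their bound), with 6 members above 0 and 3 below under each of the 3 scalings. The 7 others ranged from -1.13 to 3.27 in log2 fold change, with edgeR adjusted p from 0.416 to 0.980.

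Appetitive against neutral compares female exposure in a clean home cage with the conditioning cage without a stimulus, so cage and stimulus differ together. None of the 9 genes passed edgeR's adjusted threshold, which 6.17% of all genes passed. At an unadjusted p under 0.05 there were 4 members (Nlgn1 and Shank1 with positive, Nrxn3 and Shank3 with negative fold changes), against 29.3% of all genes, and DESeq2 called the same 4 genes against 29.2%. The members' median was -0.95 beside -0.91 for all genes, and -0.95 beside -0.80 with low genes at their bound. Of the members 4 were above 0 and 5 below, or 3 and 6 with library size alone. The 5 others ranged from -2.86 to 0.50, with edgeR adjusted p from 0.344 to 0.958.

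Appetitive against aversive compares the opposed experiences among libraries of the same described workflow and read length, where shared batches are not known. None of the 9 genes passed edgeR's adjusted threshold, against 1.8% of all genes. That share was 0 without any 1 home-cage library and with only the groups compared, while calls went from 356 to 1270 genes with no filter on low counts. At an unadjusted p under 0.05 there were 2 members, Nrxn3 and Shank3, both with negative fold changes, against 20% of all genes, and DESeq2 called the same 2 genes against 24%. The median was -1.18 over the members and -0.48 over all genes, and -1.18 and -0.39 with low genes at their bound. Of the members 2 were above 0 and 7 below, or 1 and 8 with library size alone. The 7 others ranged from -2.61 to 1.23, with edgeR adjusted p from 0.625 to 0.989.

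The home-cage group serves as the reference without conditioning. Aversive against home cage, no member passed by edgeR at an adjusted p (0% of all genes did), none at an unadjusted p under 0.05 (9.96%) and none by DESeq2 (8.3%), with a median of 1.83 over the members and -0.13 over all genes (-0.09 at the bound), and 7 members above 0 under each scaling. The adjusted p by edgeR ran from 0.523 to 1. Appetitive against home cage, no member passed by edgeR at an adjusted p (1.98% of all genes did), 2 did at an unadjusted p (23.8%), again Nrxn3 and Shank3 with negative fold changes, and DESeq2 called the same 2 genes (29%). The members' median was -0.62 beside -1.45 for all genes, and -0.62 beside -0.73 with low genes at their bound, with 3 members above 0, or 4 with DESeq2 size factors. Neutral against home cage, no member passed by edgeR at an adjusted p (0.0861% of all genes did), while Nlgn1 had an unadjusted p under 0.05 (13.5% of all genes) and was the 1 member called by DESeq2 (7.64%). The medians there were 0.28 over the members and 0.08 over all genes.

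Nrxn2, a presynaptic neurexin on chromosome 19 (ENSMUSG00000033768, chr19:6418731-6544169, plus strand, build GRCm38), was detected in all 10 libraries. It read 13.7, 6.20 and 11.3 CPM in the home-cage libraries, 34.2, 4.52 and 21.8 in the neutral, 15.1 and 43.2 in the aversive and 37.5 and 8.38 in the appetitive libraries. At the trimmed-mean scaling the 4 groups overlapped except that both aversive libraries lay above the home-cage ones. With library size alone aversive replicate 1 (302 of 27159427 counts) was below home-cage replicate 1 (344 of 29194873). An antisense gene, Gm14964, shares 207 bp of exon with Nrxn2 (1.5% of its exon length), and the counting did not use strand, so reads from the shared stretch cannot be assigned. Gm14964 had from 0.328 to 1.72 times the counts of Nrxn2 and exceeded it in 4 of 10 libraries, namely aversive replicate 1 and all 3 neutral libraries. A second opposite-strand gene, Slc22a12, shares 682 bp of exon and had at most 76 counts, in neutral replicate 3.

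Nrxn3, a neurexin gene spanning 1612.1 kb on chromosome 12 (ENSMUSG00000066392, chr12:88722876-90334935, plus strand), differed 125-fold within the aversive group and 12.7-fold within the home-cage group. Within the neutral group it differed 209-fold, over a library at the floor of 3 counts, so that ratio is not exact. It had 167, 12 and 575 counts in the home-cage libraries (6.65, 0.625 and 7.95 CPM) and 3, 858 and 139 counts in the neutral ones (0.0473, 9.91 and 1.79 CPM). The aversive libraries had 12 and 3746 counts (0.601 and 75.1 CPM), and the appetitive libraries 1 and 0 counts (0.0782 and 0 CPM). Both appetitive libraries were thus below every aversive and home-cage library, while appetitive replicate 1, with its 1 count, was not below neutral replicate 1. With 1 count over both appetitive libraries, the aversive mean was 1207 times the appetitive level (counting interval of that 1 count 217 to 47677), the neutral mean 125 times (22.4 to 4933) and the home-cage mean 162 times (29.1 to 6393). These intervals do not cover the spread between libraries: the aversive ratio rests on replicate 3 and the neutral ratio on replicate 2, and aversive replicate 1 read 0.601 CPM beside an appetitive level of 0.0313 CPM pooled over both libraries.

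The fitted log2 fold changes of Nrxn3 depend on the prior count at so low a level and are no bound. Appetitive against aversive the value was -9.96 (SE 3.45, edgeR adjusted p = 0.161), and without aversive replicate 3 it was -3.99 (adjusted p = 0.632, within a range of 0.00113 to 0.711 over the alternatives). Against neutral it was -6.69 (SE 3.03, edgeR adjusted p = 0.169), with -4.57 without neutral replicate 2 and -10.56 without appetitive replicate 1. Against home cage it was -7.07 (SE 3.07, edgeR adjusted p = 0.197), with -11.03 without appetitive replicate 1 and -6.17 without appetitive replicate 2. The overlapping gene Gm37980 (439 bp of shared exon, opposite strand) had 0 counts in every library.

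Nlgn1, the neuroligin of excitatory synapses (ENSMUSG00000063887, chr3:25426215-26332460, minus strand), had its lowest mean level in the neutral group. It had 602, 109 and 884 counts in the home-cage libraries (24.0, 5.68 and 12.2 CPM), against 2, 12 and 26 counts in the neutral libraries (0.0316, 0.138 and 0.334 CPM). The aversive libraries had 22 and 330 counts (1.10 and 6.61 CPM) and the appetitive libraries 5 and 339 counts (0.391 and 17.8 CPM). At the trimmed-mean scaling every neutral library was below every library of the other groups, although neutral replicate 3 and appetitive replicate 1 lay close together. With library size alone neutral replicate 3 (26 of 62741023 counts) was above appetitive replicate 1 (5 of 26647573).

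Neutral against home cage, the log2 fold change of Nlgn1 was -6.35 (SE 1.92, edgeR adjusted p = 0.183, range over the alternatives 0.000154 to 0.471). The fold change ran from -7.37 to -5.79 over them and was -7.31 without neutral replicate 3. Aversive against neutral the fold change was 4.50 (SE 1.82, edgeR adjusted p = 0.230, range over the alternatives 0.0211 to 0.468), or 2.69 without aversive replicate 3. Appetitive against neutral it was 5.73 (SE 1.91, edgeR adjusted p = 0.0852), or 1.11 without appetitive replicate 2 (adjusted p = 0.699, range 0.000820 to 0.699). The summed level of 6 astrocyte markers was also lowest in the neutral group: 163, 338 and 252 CPM in the neutral libraries, led by Aldoc, with Aqp4 at 0 in replicate 1, against 13163, 5328 and 4127 CPM in the home-cage, 3957 and 4772 in the aversive and 4028 and 2318 in the appetitive libraries. In every neutral library the neuron and microglia sums were also below those of all other libraries, and the choroid plexus and ependymal sums were above them. The part of these cells in the Nlgn1 levels was not tested. The overlapping antisense gene A830092H15Rik (1229 bp of shared exon) had at most 5 counts.

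Nlgn2, the neuroligin of inhibitory synapses (ENSMUSG00000051790, chr11:69823122-69837784, minus strand), read 2.63, 0.937 and 3.59 CPM in the home-cage libraries, 7.78, 2.06 and 6.22 in the neutral, 16.8 and 17.5 in the aversive and 0.626 and 14.5 in the appetitive libraries. At the trimmed-mean scaling the aversive pair lay close together and above every other library, whereas the appetitive pair differed 23.2-fold. With library size alone the aversive pair lay farther apart, and aversive replicate 1 (336 of 27159427 counts) was below appetitive replicate 2 (277 of 16968588). No comparison of Nlgn2 had an unadjusted p under 0.05 by edgeR.

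Dlg4, which encodes PSD-95, the scaffold to which neuroligins and glutamate receptor complexes bind (ENSMUSG00000020886, chr11:70016942-70047522, plus strand), ranked from 5 to 9 among the 9 members per kb of exon in the 10 libraries. It read 5.26, 1.82 and 5.79 CPM in the home-cage libraries, 3.16, 5.88 and 5.54 in the neutral, 1.45 and 2.97 in the aversive and 1.64 and 0.210 in the appetitive libraries. Both appetitive libraries were below every home-cage and neutral library, but no comparison had an unadjusted p under 0.05 by edgeR. Both aversive libraries were below every neutral one at the trimmed-mean scaling. With library size alone aversive replicate 3 (148 of 39172609 counts) was above neutral replicate 1 (200 of 60077131). The appetitive values rest on 21 and 4 counts.

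Shank1 is a master scaffold of the excitatory postsynaptic density (ENSMUSG00000038738, chr7:44310253-44360572, plus strand). At the trimmed-mean scaling it gave the highest level per kb of exon of any member in any library, 11.02 CPM per kb in appetitive replicate 1. That rank is not kept with library size alone, where Shank1 and Nrxn3 in aversive replicate 3 are higher. It read 14.9, 6.67 and 13.5 CPM in the home-cage libraries, 8.01, 3.87 and 3.76 in the neutral, 31.9 and 51.3 in the aversive and 116 and 3.67 in the appetitive libraries. The aversive libraries were above every home-cage and neutral library, while at the trimmed-mean scaling the appetitive pair held both the highest and the lowest of the 10 values. With library size alone the highest was aversive replicate 3 (2560 of 39172609 counts, against 1482 of 26647573 in appetitive replicate 1). Aversive against neutral the log2 fold change was 2.996 (SE 1.27, edgeR adjusted p = 0.242). Appetitive against neutral it was 3.52 (SE 1.30, edgeR adjusted p = 0.108), and this rests on 1 library: without appetitive replicate 1 it was -0.59 (adjusted p = 0.796) and without replicate 2 it was 4.41 (adjusted p = 0.0182), in a range of 0.0118 to 0.796 over the alternatives. Appetitive replicate 1 was also the library with the highest oligodendrocyte sum (798768 CPM). The sums of the next libraries in the order of Shank1 at the trimmed-mean scaling, aversive replicates 3 and 1 and home-cage replicate 1, were 22997, 406995 and 363317 CPM. The part of these cells in the Shank1 levels was not tested. An opposite-strand gene, 1700008O03Rik, shares 339 bp of exon with Shank1 and had at most 130 counts, in neutral replicate 3.

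Shank2 (ENSMUSG00000037541, chr7:144001928-144424494, plus strand), a scaffold of the same layer, read 1.83, 0.312 and 9.98 CPM in the home-cage libraries and 44.1, 6.80 and 17.1 in the neutral. In the aversive libraries it read 35.4 and 2.65 CPM, a 13.4-fold gap, and in the appetitive ones 6.26 and 0 CPM, from 80 and 0 counts. Both appetitive libraries lay below every neutral library, but no comparison of Shank2 had an unadjusted p under 0.05 by edgeR.

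Shank3 (ENSMUSG00000022623, chr15:89499623-89560261, plus strand), the Shank gene affected in Phelan-McDermid syndrome, was the member with the smallest edgeR adjusted p. It had 39, 45 and 315 counts in the home-cage libraries (1.55, 2.34 and 4.35 CPM) and 127, 549 and 321 counts in the neutral ones (2.00, 6.34 and 4.12 CPM). The aversive libraries had 297 and 660 counts (14.9 and 13.2 CPM), and the appetitive libraries 0 and 1 count (0 and 0.0524 CPM). The appetitive libraries were below, and the aversive libraries above, every library of the other groups. With 1 count over both appetitive libraries, the aversive mean was 448 times the appetitive level (counting interval of that 1 count 80.4 to 17698), the neutral mean 133 times (23.8 to 5237) and the home-cage mean 87.7 times (15.7 to 3465).

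The fitted log2 fold changes of Shank3, again no bounds, were -7.04 against neutral (SE 2.09, edgeR adjusted p = 0.0644) and -8.79 against aversive (SE 2.26, edgeR adjusted p = 0.0809) for the appetitive group. Against home cage the value was -6.45 (SE 2.04, edgeR adjusted p = 0.111). Against neutral, aversive and home cage these values were -10.61, -12.40 and -10.10 without appetitive replicate 2, and -6.35, -8.14 and -5.84 without appetitive replicate 1. The same differences passed in DESeq2, with adjusted p of 0.000280 against neutral, 4.29e-06 against aversive and 0.00119 against home cage, the lowest of the alternatives, where the highest were 0.188, 0.711 and 0.289. An opposite-strand gene, Gm15609, shares 271 bp of exon and had at most 67 counts, in neutral replicate 3.

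Homer1 (ENSMUSG00000007617, chr13:93299635-93405129, plus strand) links Shank proteins to metabotropic glutamate receptors, and a short form of it, which counts per gene cannot separate from the long forms, is induced by neuronal activity. It read 15.3, 7.19 and 14.2 CPM in the home-cage libraries, 12.9, 11.7 and 19.8 in the neutral, 0.150 and 24.3 in the aversive and 2.97 and 12.4 in the appetitive libraries. The aversive pair, at 3 and 1213 counts, held both the lowest and the highest of the 10 values. No comparison of Homer1 had an unadjusted p under 0.05 by edgeR.

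Levels of different genes were compared per kb of exon. In the home-cage group Shank1 led at 1.11 ± 0.420 CPM per kb (SD, n = 3), followed by Nlgn1 (1.04 ± 0.691) and Homer1 (1.02 ± 0.367), and Shank3 came last at 0.299 ± 0.157. In the neutral group Shank2 led at 2.11 ± 1.79 (SD, n = 3) and Nlgn1 came last at 0.0125 ± 0.0114. In the aversive group Shank1 led at 3.96 ± 1.30 (SD, n = 2) and Dlg4 came last at 0.167 ± 0.0808, and in the appetitive group Shank1 led at 5.69 ± 7.55 (SD, n = 2) and Shank3 came last at 0.00285 ± 0.00403. In the home-cage group the step from Nrxn2 (0.753 ± 0.277) to Nlgn2 (0.412 ± 0.232) was larger than the larger SD of the pair, and no other step between neighbours in the order of any group was. The leading gene changed from library to library: Nlgn1 led in home-cage replicate 1, Shank1 in home-cage replicates 2 and 3 and appetitive replicate 1, Homer1 in neutral replicates 2 and 3, Shank2 in aversive replicate 1 and neutral replicate 1, Nrxn3 in aversive replicate 3 and Nlgn2 in appetitive replicate 2.

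**Figure D2:**
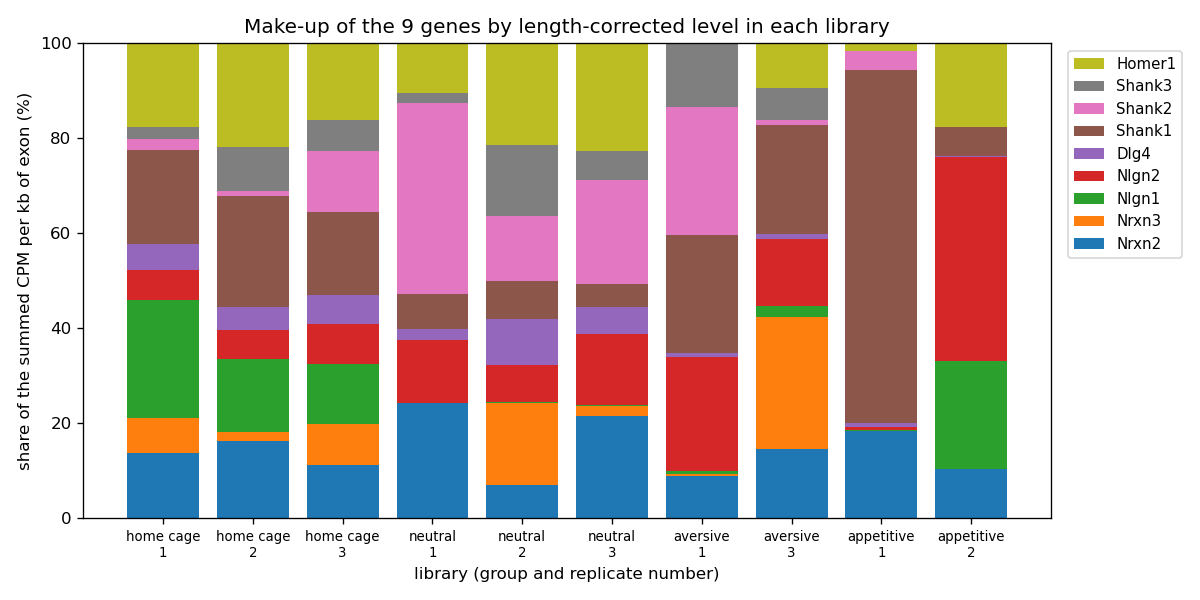
Share of each gene in the summed CPM per kb of exon of the 9 genes, in percent, with 1 bar per library. Shank1 makes up 74.3% in appetitive replicate 1, Nlgn2 makes up 42.9% in appetitive replicate 2 and Shank2 makes up 40.1% in neutral replicate 1.

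Likeness across libraries was described by correlation. Among 36 pairs of members, Pearson's r of log2(CPM + 0.5) over the 10 libraries had a median of 0.085, from -0.70 (Nlgn1 with Shank2) to 0.65 (Nrxn2 with Shank1), with 22 pairs above 0 and 14 below. Depth and the marker sums differed between the libraries, and such differences can touch many genes in a library at once, so these values are descriptions. No median over pairs of other genes is given beside them. The genes most like each member, among those with a mean of at least 1 CPM, were not members. They were Ip6k2 (r = 0.91) and Gm16835 (0.90) for Nrxn2, Zbtb7c (0.97) and Gm14636 (0.96) for Nrxn3, Spon1 (0.98) and Ranbp3l (0.98) for Nlgn1, and Pfas (0.92) and Gtf2b (0.91) for Nlgn2. For the scaffolds they were Carmil1 (0.92) for Dlg4, Celf4 (0.94) and Rpl14-ps1 (0.94) for Shank1, Prr12 (0.89) and Ptpn23 (0.89) for Shank2, Rpusd4 (0.98) and Baz1a (0.97) for Shank3, and Atrn (0.96) and Rnpc3 (0.95) for Homer1.

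The wider pathway was read from lists of partner genes, and the test was again edgeR's. Over all genes, the shares at an unadjusted p under 0.05 and by DESeq2 were 19.1% and 16.5% in aversive against neutral, 29.3% and 29.2% in appetitive against neutral, and 20% and 24% in appetitive against aversive. Against home cage they were 9.96% and 8.3% for aversive, 23.8% and 29% for appetitive and 13.5% and 7.64% for neutral. The counts below are to be read against these shares, and nothing particular to a list is read from them. The 13 other genes of the neurexin, neuroligin, Shank, Homer, Dlg and Dlgap families were all tested. Appetitive against neutral, 1 was called lower and 0 higher, where 6.17% of all genes were called (4 lower and 1 higher at an unadjusted p under 0.05, 29.3% of all genes, and 4 and 2 by DESeq2, 29.2%), and appetitive against aversive, 1 was called lower and 0 higher, where 1.8% were called (5 and 0 unadjusted, 20%, and 6 and 0 by DESeq2, 24%). In the other comparisons edgeR called 0, while unadjusted 4 were higher in aversive against neutral, 4 lower in appetitive against home cage, and 4 lower and 1 higher in neutral against home cage, with 4, 4 and 2 called by DESeq2. Aversive against home cage, the count was 0 by each of these.

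Dlg3, a scaffold related to Dlg4, read 32.1, 28.0 and 9.94 CPM in the neutral libraries and 0.469 and 0.0524 in the appetitive ones. Both appetitive libraries were below all 3 neutral ones. Its log2 fold change was -6.51 (SE 1.60, edgeR adjusted p = 0.0401, range over the alternatives 1.79e-06 to 0.117). The fitted value rests on 6 and 1 appetitive counts. It was -8.81 without appetitive replicate 1 and -5.70 without replicate 2, the ends of its range over the alternatives. The call ended without any 1 of the 3 home-cage libraries, the 3 neutral libraries or appetitive replicate 2, at adjusted p from 0.0523 to 0.0839.

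Among 36 trans-synaptic partners, which include other adhesion pairs of the cleft, 34 were tested. Of these edgeR called 1, higher in appetitive against neutral, where 6.17% of all genes were called (6 higher and 3 lower unadjusted, 7 and 3 by DESeq2). It called 0 in the others, where the unadjusted counts higher and lower were 7 and 2 in aversive against neutral (19.1% of all genes), 1 and 4 in appetitive against aversive (20%), 0 and 4 in aversive, 0 and 8 in appetitive and 0 and 9 in neutral against home cage. DESeq2 called 7 and 2, 1 and 4, 0 and 1, 1 and 8, and 0 and 7 in these comparisons.

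The gene called was Cadm3, a cell adhesion molecule, at 24.6 and 10.4 CPM in the appetitive libraries and 0, 0.0231 and 0.128 in the neutral ones. Both appetitive libraries were above all 3 neutral ones. Its log2 fold change was 8.35 (SE 2.18, edgeR adjusted p = 0.0476, range over the alternatives 1.65e-06 to 0.107). The fitted value rests on 0, 2 and 10 neutral counts, ran from 7.47 to 10.32 over the alternatives and is no bound. The call ended with library size alone (adjusted p = 0.0684) and without any 1 of the 3 home-cage libraries, the 3 neutral libraries or appetitive replicate 1, at adjusted p from 0.0803 to 0.0966. The calls of Dlg3 and Cadm3 also ended with a replicate block in the fit and with only the groups compared.

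Among the 22 presynaptic partners of neurexins, all tested, 1 was called by edgeR in each comparison of the appetitive group, lower in each, and 0 in the other comparisons. Of all genes 6.17% were called in appetitive against neutral, 1.8% against aversive and 1.98% against home cage. Unadjusted, the counts higher and lower were 7 and 6 against neutral (29.3% of all genes), 0 and 6 against aversive (20%) and 1 and 6 against home cage (23.8%), and 6 and 0 in aversive against neutral, 0 and 0 in aversive and 0 and 5 in neutral against home cage. DESeq2 called 6 and 7, 0 and 6, 0 and 7, 4 and 0, 0 and 0, and 0 and 1.

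Of the 37 genes of the excitatory postsynaptic density, all tested, Dlg3 was the 1 gene called by edgeR, in appetitive against neutral. There 6.17% of all genes were called (6 of the list lower and 0 higher unadjusted, 5 and 1 by DESeq2). In the others edgeR called 0, with unadjusted counts lower and higher of 0 and 3 in aversive against neutral (19.1% of all genes), 6 and 0 in appetitive against aversive (20%), 2 and 0 in aversive, 6 and 1 in appetitive and 4 and 1 in neutral against home cage. DESeq2 called 1 and 2, 7 and 0, 2 and 0, 4 and 0, and 4 and 0. Of 10 genes of the inhibitory postsynapse 9 were tested and edgeR called 0 in each comparison. At an unadjusted p under 0.05 and by DESeq2 alike, 1 was higher in aversive against neutral, 1 higher in appetitive against neutral and 1 lower in neutral against home cage, and 0 in the others.

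The median log2 fold changes of the lists are given with low genes at their bound. Some fitted medians lay farther from 0: for the neuron markers -1.65 in appetitive against neutral and -4.62 in appetitive against aversive, and for the trans-synaptic list -3.94 in appetitive against home cage. Aversive against neutral, they were 1.61 for the family genes, 1.97 for the trans-synaptic, 1.34 for the presynaptic, 0.74 for the excitatory and 1.52 for the inhibitory list, beside -0.19 for all genes and 1.96 for the neuron markers. Appetitive against neutral, they were 0, 0, 0.03, -1.29 and 0.93 in the same order, beside -0.80 for all genes and 0 for the neuron markers. Appetitive against aversive, they were -2.66, -1.41, -0.77, -1.89 and -0.93, beside -0.39 and -1.91. The part of neuron content in the medians of the lists was not tested, nor were their signs recomputed under the other scalings. Against home cage, the medians were 0.69, 0.13, 0.68, 0.69 and 0.62 for the aversive group, beside -0.09 for all genes and 1.39 for the neuron markers. They were -1.76, -2.14, -0.17, -1.37 and -0.98 for the appetitive group (-0.73 and -4.53), and -1.32, -1.63, -1.002, 0.16 and -0.50 for the neutral group (0.08 and -2.27).

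Promoter sequences from RefSeq (GRCm38.p6) matched 6 of the 9 genes, in 12 windows. The 250 bases before 1 of the 2 starts listed for Homer1 are shown because the short form of this gene is known to respond to neuronal activity and the sorted cells were tagged by an activity-dependent promoter. The window with matches was chosen, and which forms arise from this start was not tested. The letters TGACG, the core of the cAMP response element, were searched on both strands and are in capitals. The stretch lies at chr13:93303507-93303756 on the plus strand, within the span of the gene given above.
Homer1: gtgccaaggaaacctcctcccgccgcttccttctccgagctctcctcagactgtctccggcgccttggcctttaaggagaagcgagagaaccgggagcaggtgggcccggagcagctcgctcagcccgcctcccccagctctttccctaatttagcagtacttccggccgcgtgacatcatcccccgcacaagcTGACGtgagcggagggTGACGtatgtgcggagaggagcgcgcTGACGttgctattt
TGACG occurred 3 times, beginning 56, 40 and 14 bases before the start. Of all 32851 windows of this length 17.8% held it at least once and 0.688% at least 3 times. Among the members' 12 windows 2 held it, the one shown and 1 of 3 for Dlg4, while the other Homer1 window (chr13:93307784-93308033) held none. The full element TGACGTCA was in 0 of the 12 and in 1.55% of all windows. These matches describe the sequence and were not tied to a measured level.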

How the data were processed

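The authors deposited raw counts per Ensembl gene for each of the 10 libraries, and these counts were used as deposited. Per the submitters' processing notes and the study's methods, the first 40 bases of the reads were mapped with STAR to mm10 and counted with featureCounts of the Subread package without strand. Versions of these tools are not given in the sources used here. The study's methods name an Ensembl annotation of GRCm38 for the mapping, which is another release than the one used below for symbols and lengths. Gene symbols, positions and exon lengths came from GENCODE M21 (GRCm38), which matched 53274 of 53379 identifiers, 159 of them sharing a symbol, and 9 of 9 members.

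Counts were filtered by filterByExpr, scaled by trimmed means (factors 0.480 to 1.45) and fitted with edgeR 4.0.16 (R 4.3.3) by the quasi-likelihood F test on all 10 libraries in 4 groups, without a replicate block, with Benjamini-Hochberg adjustment and a threshold of 0.05. DESeq2 1.42.0 (Wald test) was an alternative, as were other scalings, filters, the groups compared alone, a replicate block and each library left out in turn. Further steps ran in Python 3.11.15, pandas 2.3.3, scipy 1.17.1 and matplotlib 3.10.9.

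The members and the gene lists were chosen with earlier results of these data known. All 9 members were described, with fold changes for those with an unadjusted p under 0.05. From each pathway list up to 2 genes in each direction with an adjusted p under 0.05 were to be named, and the 2 genes most like each member were named by Pearson's r of log2(CPM + 0.5). Some genes that these rules would name are not reported here and enter only the totals. For the pathway genes named, the alternatives were chosen after seeing the data. The motif was chosen after the promoter sequences were read.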

Additional observations from a re-analysis of the deposited data

How the results depend on the processing

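The number of members called at an adjusted p under 0.05, 0 in each of the 6 comparisons, stayed 0 in 92 of 102 recomputed values over 17 alternatives. By the DESeq2 Wald test it was 1 in aversive against neutral and in neutral against home cage, 4 in appetitive against neutral, and 2 in appetitive against aversive and against home cage. With no filter on low counts it was 1 in appetitive against aversive (Nrxn3), where calls over all genes went from 356 to 1270. With only the groups compared it was 1 in appetitive against home cage (Shank3), where they went from 391 to 3585. In every other comparison that fit called 0 of all genes. With each library left out in turn, the count in appetitive against neutral ran from 0 to 1: Shank3 passed without aversive replicate 1 (adjusted p = 0.0441) or aversive replicate 3 (0.0403), within 0.000280 to 0.188 over all alternatives, and Shank1 passed without appetitive replicate 2 (log2 fold change 4.41), while calls over all genes went from 1218 to 2621, 2661 and 2208 in these fits. In other fits of appetitive against neutral these calls fell, to 232, 231 and 270 without home-cage replicates 1, 2 and 3, and to 67 without neutral replicate 3. With a replicate block they fell to 73. Appetitive against aversive and against home cage, calls over all genes were 0 without any 1 home-cage library. The cause of these moves was not tested. Where a group is left with 1 library, that library is assumed to vary like the other groups. With a replicate block the count was 0 in all 6 comparisons. Same-numbered libraries of different groups correlated from -0.062 to 0.188 in their deviations from the group means (3 of 12 pairs above 0.1). Deviations in a group of 2 libraries mirror each other, so these values cannot tell whether the numbers mark shared batches. Of 178 values for the 11 member differences with an unadjusted p under 0.05, 162 kept their direction and side of the threshold, 15 kept their direction and passed it, and 1 reversed: Shank1 in appetitive against neutral was -0.59 without appetitive replicate 1. For the 2 called differences of Dlg3 and Cadm3, chosen for this after seeing the data, 13 of 32 values stayed past the threshold, 19 missed it and 0 reversed. The filter of at least 10 counts in every library left 2 of the 9 members, Nrxn2 and Shank1, so its 6 counts of 0 among these values cover those genes alone, and it gave no value for Dlg3 and Cadm3. The 1 count in all for each of Nrxn3 and Shank3 in the appetitive group limits how large a ratio can be given. The appetitive libraries also had the fewest genes with at least 1 count (14144 and 14658), and the counting intervals do not cover this.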
